A study of Mus musculus with 27 samples.

Results

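Con4, Con5 and Con6 are 3 of the 9 mice in the Con group of a liver expression series of 27 mice. They were chosen by measured values: their combined levels of clock genes and of glucocorticoid-induced genes were low among the Con livers. All that follows on Con4, Con5 and Con6 beside the other 6 Con mice (Con1, Con2, Con3, Con7, Con8 and Con9) is therefore a description, with no test. Tests were made in the Veh and Dex arrays, which that choice did not use. The series holds 3 groups of 9 livers, 1 mouse per array, titled Con, Veh and Dex, names the labels do not spell out. The labels give no strain, sex, age, genotype, agent, dose or time of collection, and they do not say what the replicate numbers 1 to 9 stand for or whether mice shared a cage or a day. All 3 groups are used here, and the labels name nothing that they share beyond liver as the tissue.

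The liver clock is a feedback loop of transcription factors. Bmal1 (Arntl) and Clock drive the Per and Cry repressors, the REV-ERB receptors Nr1d1 and Nr1d2, and the output factors Dbp and Tef, usually through E-box sites. The REV-ERB receptors repress Arntl, Nfil3 and, in part, Cry1 through sites they share with ROR receptors, so these genes run roughly out of phase with Dbp over the day. Glucocorticoids follow a daily rhythm in blood, induce Per1 and many metabolic genes in liver, and act through a receptor held ready by Hsp90 chaperones.

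The genes that made up the scores behind the choice are not stated, so means of gene lists drawn up for this description are given. The mean of Dbp, Tef and Nfil3, relative to the mean of the 9 Con livers, was -1.49 in Con4, -2.01 in Con5 and -1.55 in Con6 and 0.66 to 1.05 in the others, and that of the REV-ERB receptors was -2.50, -1.95 and -1.88 against 0.70 to 1.59. The mean of the repressors did not set the 3 mice apart (-0.11 to 0.08 against -0.25 to 0.27). Genes of the loop differed in both directions in Con4, Con5 and Con6. Dbp, Nr1d2, Tef and Nr1d1 were lower in all 3 mice than in any other Con liver, and Arntl, Cry1 and Nfil3 were higher in all 3. Proximal promoters are shown for Dbp, Tef and Per1, whose means were lower, and for Cry1 and Nfil3, whose means were higher. Each is the 250 bases before a RefSeq start site in build GRCm38.p6, written on the gene's own strand. For Arntl a stretch of 30 bases that begins 20 bases into the transcript is shown. For genes with a match, the start site shown was picked because its window held a searched motif. Capitals mark an E-box (CACGTG) in Tef, Per1 and Cry1 and a RORE core (TAGGTCA, or TGACCTA on the other strand) in Nfil3 and Arntl; Dbp held none of the searched motifs in this window.
Dbp (chr7:45704997-45705246, + strand): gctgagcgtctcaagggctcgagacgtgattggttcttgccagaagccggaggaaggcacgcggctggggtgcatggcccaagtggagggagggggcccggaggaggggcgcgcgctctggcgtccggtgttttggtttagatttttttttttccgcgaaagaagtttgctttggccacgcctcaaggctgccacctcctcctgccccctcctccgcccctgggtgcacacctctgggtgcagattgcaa
Tef (chr15:81802423-81802672, + strand): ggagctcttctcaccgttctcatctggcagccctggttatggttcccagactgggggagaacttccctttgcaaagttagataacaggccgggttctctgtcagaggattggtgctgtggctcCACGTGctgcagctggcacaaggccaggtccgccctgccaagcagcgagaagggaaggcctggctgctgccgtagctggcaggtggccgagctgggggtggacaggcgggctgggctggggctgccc
Per1 (chr11:69098699-69098948, + strand): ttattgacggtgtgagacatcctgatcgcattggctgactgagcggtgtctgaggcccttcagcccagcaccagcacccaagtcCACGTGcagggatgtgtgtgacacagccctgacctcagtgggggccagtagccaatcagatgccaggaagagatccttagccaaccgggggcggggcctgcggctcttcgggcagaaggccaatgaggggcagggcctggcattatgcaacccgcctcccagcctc
Cry1 (chr10:85185055-85185304, - strand): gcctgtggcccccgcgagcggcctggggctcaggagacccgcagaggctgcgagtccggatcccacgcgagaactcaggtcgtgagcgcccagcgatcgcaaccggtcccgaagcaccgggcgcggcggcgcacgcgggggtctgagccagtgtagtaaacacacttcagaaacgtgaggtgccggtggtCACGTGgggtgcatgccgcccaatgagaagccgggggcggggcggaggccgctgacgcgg
Nfil3 (chr13:52981040-52981289, - strand): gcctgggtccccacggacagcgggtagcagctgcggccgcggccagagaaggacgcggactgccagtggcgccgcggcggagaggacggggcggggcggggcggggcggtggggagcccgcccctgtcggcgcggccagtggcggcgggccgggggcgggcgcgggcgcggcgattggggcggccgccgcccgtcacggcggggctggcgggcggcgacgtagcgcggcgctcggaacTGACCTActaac
Arntl (chr7:113207530-113207559, + strand): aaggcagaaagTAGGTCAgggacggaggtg
Both strands of 300 bases (250 before and 50 after each start site) were searched. Of 30 clock and most differing genes, 26 had a promoter in the table, with 34 windows. The E-box CACGTG lay in Cry1, Per1 and Tef (4 of the 34 windows) and in 7.15% of all 32851 windows. The RORE core TAGGTCA lay in Arntl and Nfil3 (2 of the 34) and in 2.61% of all windows. The D-box TTANGTAA lay in Per3 alone (1 of the 34) and in 2.32% of all windows. The glucocorticoid response core ACANNNTGT lay in none of the 26 genes and in 6.85% of all windows. A match is a match of letters only, and none of these arrays measured binding.

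Among all 6784 probe sets that were bright enough to describe, most did not separate Con4, Con5 and Con6 from the other Con livers. An array has 1 or more probe sets per gene, and values are the authors' scaled intensities, taken to log2 after a floor at 2.6. "Without overlap" means that all 3 mice lay above, or all 3 below, each of the other 6. In Con4, Con5 and Con6, 136 probe sets were higher without overlap (2.0% of 6784) and 185 were lower (2.73%). With a mean difference of at least 2-fold as well, 38 were higher (0.56%) and 49 lower (0.722%). Over the 5200 genes with a single symbol, 109 were higher (2.1%) and 146 lower (2.81%). The median difference over all probe sets was -0.02 on the log2 scale. The count of 321 probe sets without overlap rises as fewer mice have to separate: it was 723 without Con4, 597 without Con5 and 579 without Con6.

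**Figure D1:**
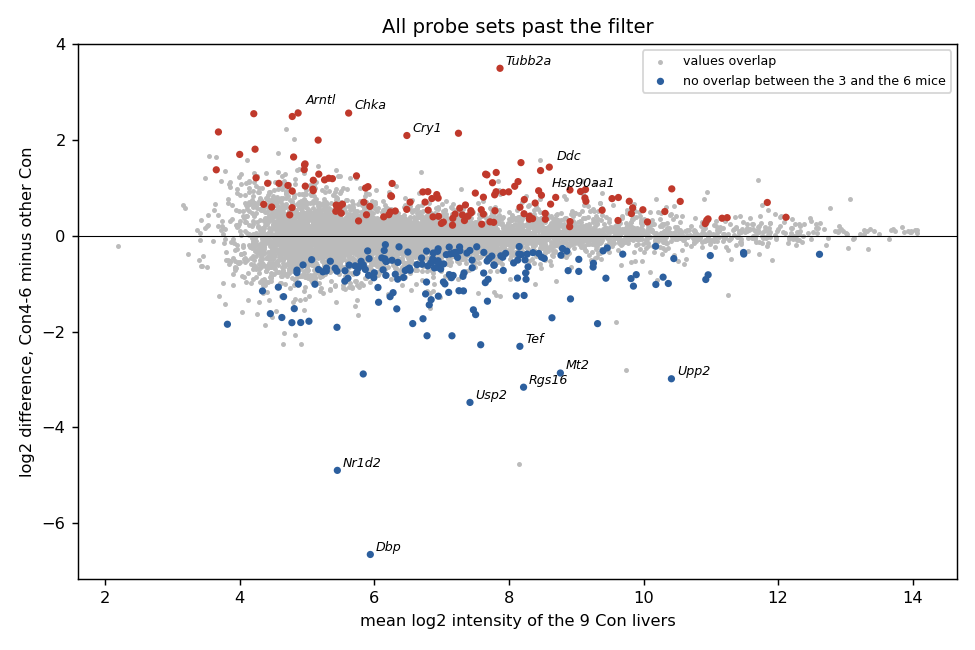
Difference between the mean of Con4, Con5 and Con6 and the mean of the other 6 Con livers (log2, vertical axis) against the mean log2 intensity of the 9 livers (horizontal axis), 1 point per probe set. Red points were higher and blue points lower without overlap; Dbp (-6.65) and Nr1d2 (-4.90) lie lowest and Tubb2a (3.50) highest among the coloured points, and the grey point at -4.76 is Mt1.

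The authors' scaling was even across the 9 Con arrays. Their 2% trimmed means all lay at 100.1, and their median intensities were 32.95, 23.3 and 26.7 in Con4, Con5 and Con6 and 22.8 to 32.0 in the others. Beta-actin controls at the 3' and 5' ends of the transcript give a log2 ratio (3' over 5') that grows as RNA breaks down, and it was 0.58 in Con4, 1.34 in Con5 and 1.18 in Con6, and 0.66 to 1.07 in the other Con livers. Con5 and Con6 thus had the 2 highest ratios and Con4 the lowest; the part of this ratio in the differences below was not tested. Array-to-array Spearman correlations were 0.907 to 0.931 among Con4, Con5 and Con6, 0.891 to 0.937 among the others and 0.884 to 0.923 between the sets. The first principal component of the Con arrays (20.5% of the variance) mixed the sets. On the second (17.3%), Con4, Con5 and Con6 had scores of 27.1, 20.1 and 16.3, against 0.71 or less in each other Con liver.

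The output factor Dbp, a PAR bZIP activator of rhythmic liver genes, differed most of all genes without overlap. Its intensity was 2.5 in Con4, 2.4 in Con5 and 3.4 in Con6, and had a lowest value of 137.6, a median of 319 and a highest value of 392.9 in the other Con livers. Con4 and Con5 were at the floor and Con6 just above it, while Con9 (137.6) was the lowest of the others. The mean log2 intensity was 1.51 ± 0.22 (SD, n = 3) against 8.16 ± 0.55 (SD, n = 6), a difference of -6.65 that depends on the floor and was -5.70 with a floor at the 20th percentile of the positive values. Tef, the related activator, was read at 129.2, 93.3 and 80.0 in Con4, Con5 and Con6, and at 436.4 to 629.1 (median 472) in the others. The difference was -2.31, and the 3 mice lay well under the other 6. Nfil3 binds the same sites as Dbp and represses. It stood at 73.8, 34.8 and 79.7 in Con4, Con5 and Con6 and at 18 to 33 (median 21.2) in the others. Con5 lay close to Con9 (33), so the separation was narrow, with a difference of 1.38; a second Nfil3 probe set, whose name marks it as shared by a family, differed by 1.73 with overlap.

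The REV-ERB receptors repress Arntl in the loop. Nr1d2 had intensities of 1.8, 5.6 and 6.5 in Con4, Con5 and Con6, and of 100.9 to 166.0 (median 136) in the other Con livers. Con4 was below the floor, and the difference was -4.90 with log2 means of 2.19 ± 0.71 (SD, n = 3) and 7.08 ± 0.28 (SD, n = 6). Nr1d1 was read at 59.4, 58.9 and 55.7, and at 116 to 271.2 (median 140.2) in the others. The 3 mice were nearly equal to each other for Nr1d1, and the difference was -1.44.

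The activator Arntl was higher in Con4, Con5 and Con6. Its intensity was 103.2, 80.6 and 104.8 there, and 9.3 to 46.2 (median 13.2) in the others, a difference of 2.56. Con8 (46.2) and Con1 (26.6) were the highest of the others and Con2, Con3 and Con9 were all under 10. Clock, the partner of Arntl, was 74.5, 20.7 and 40.0 against 8.6 to 33.9 (median 21.0). Con5 lay inside the range of the others, so Clock overlapped, with a mean difference of 1.06. Rora, an activator at the sites of the REV-ERB receptors, differed by 0.03 and overlapped. Npas2, which can replace Clock, was too dim to pass the filter, at 3.9, 4.0 and 5.7 against 2.2 to 4.7.

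Of the 5 repressors that passed the filter, Cry1 alone separated the mice (over all 5200 genes, 2.1% were higher and 2.81% lower without overlap). Its intensity was 220.3, 269.8 and 220.2 in Con4, Con5 and Con6 and 29.6 to 96.8 (median 56.5) in the others, a difference of 2.09. This probe set is also marked as shared by a family, and 2 further Cry1 probe sets were dim, with differences of 0.22 and 0.20. Per1, the period gene that glucocorticoids induce, was 11.2, 13.7 and 22.4 against a lowest value of 14.1, a median of 63.5 and a highest value of 80.8. The other Con livers fell apart for Per1: Con8 (22.2) and Con9 (14.1) lay among the values of Con4, Con5 and Con6, and the other 4 were at 62.4 or more. The Per1 difference of -1.55 thus came with overlap, and Per1 alone did not mark Con4, Con5 and Con6. Per3 (-0.13), Cry2 (-0.34) and the repressor Bhlhe40 (-0.33) overlapped, and Per2 was too dim to pass the filter, at 26.7, 8.9 and 10.6 against 16.3 to 35.1.

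**Figure D2:**
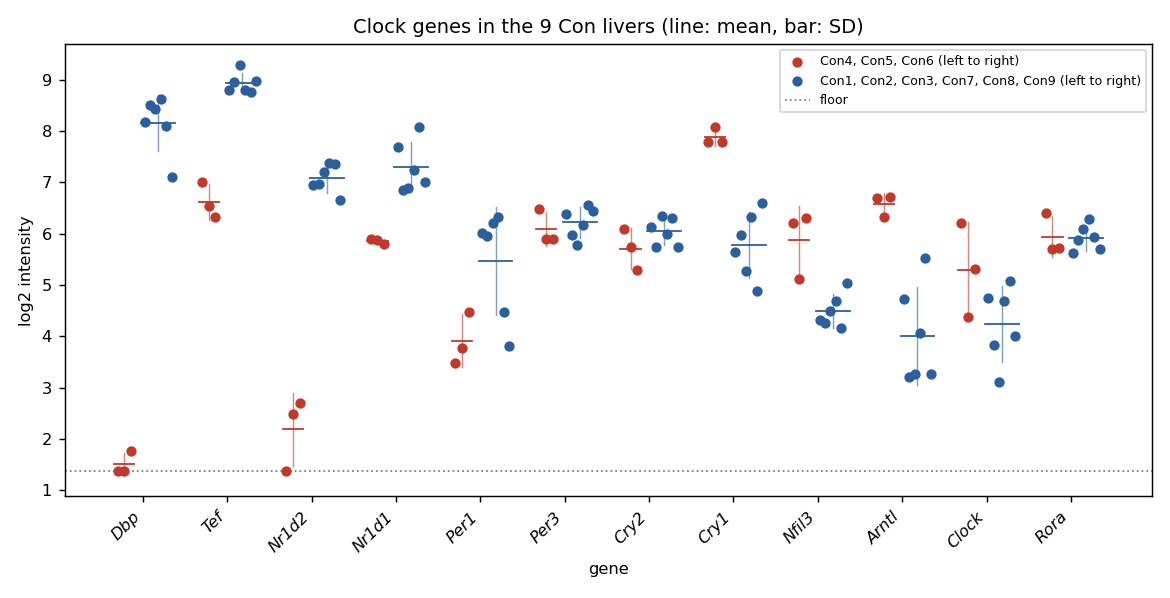
Log2 intensity (vertical axis) of 12 clock genes in the 9 Con livers, 1 point per mouse, with Con4, Con5 and Con6 in red and the other 6 in blue; horizontal lines are means, vertical bars SD, and the dotted line is the floor. Dbp, Tef, Nr1d2 and Nr1d1 lie lower and Cry1, Nfil3 and Arntl higher in the red points without overlap, while 2 blue points of Per1 (Con8 at 22.2 and Con9 at 14.1 in intensity) lie within the range of the red ones.

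Modulators of the clock and rhythmic outputs also differed in both directions. Of 4 measured kinases and modulators, Usp2 and Nampt were lower without overlap, beside 2.81% of all 5200 genes. Usp2, a ubiquitin protease driven by the clock, was 100.3, 12.1 and 33.5 in Con4, Con5 and Con6 and 274.6 to 486 (median 419) in the others. Con5 was the lowest and Con4 the highest of the 3, and the difference was -3.48; a second Usp2 probe set differed by -2.08, also without overlap. Nampt, the rate-limiting enzyme of NAD salvage, was 67.8, 115.7 and 84 against 153.4 to 372.4, a difference of -1.54.

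Of 17 measured rhythmic liver outputs, 6 were lower and 4 higher without overlap, beside 2.81% lower and 2.1% higher of all 5200 genes. The median difference of the list was -0.20. Rgs16, an inhibitor of G protein signalling, was 72.8, 63.5 and 71.6 in Con4, Con5 and Con6 and 167.8 to 1439 (median 612) in the others. The 3 mice were close together while the others spread widely, and the difference was -3.16, with -2.88 for its second probe set. Upp2, a uridine phosphorylase, was 469.6, 398.2 and 217.5 against 1756 to 4062 (median 2929), a difference of -2.98 with a wide gap between the sets. The phosphatidate phosphatase Lpin1 was 75.2, 85.1 and 47.0 against 117.7 to 665.5 (median 366), a difference of -2.27 in which Con9 (117.7) came nearest to the 3. Noct differed by -2.09, with 111.1, 49.4 and 29.2 against 157.9 to 363. A second Noct probe set past the filter differed by 0.35 with overlap. Cyp7a1, the rate-limiting enzyme of bile acid synthesis, was 73.7, 34 and 27.1 against 90.3 to 211.4, and Con4 came close to Con8 (90.3), with a difference of -1.83. The cell cycle kinase Wee1 differed by -1.81.

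The rhythmic outputs that were higher were Elovl3, Pdk4, Avpr1a and Pnp. Elovl3, a fatty acid elongase, was 79.3, 122.8 and 67.6 in Con4, Con5 and Con6 and 5.8 to 52.4 (median 15.3) in the others, a difference of 2.49. Con8 (52.4) was the nearest of the others. Pdk4, the kinase that holds back pyruvate dehydrogenase, was 52.5, 71.8 and 56.4 against 10.4 to 25, a difference of 1.65. The vasopressin receptor Avpr1a (1.16) and the purine nucleoside phosphorylase Pnp (0.78) differed less, and for Pnp Con6 (783.1) stood just above Con1 (757.1).

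Glucocorticoid-induced genes helped to choose the 3 mice, through a score whose members are not stated and may differ from the list used here. The mean of the 30 measured list members, relative to the mean of the 9 Con livers, was -0.28 in Con4, -0.33 in Con5 and -0.50 in Con6. Con8 was the nearest other liver at -0.15, and the rest lay between 0.03 and 0.54. By genes the list was mixed: 7 of 30 were lower and 1 higher without overlap, 22 overlapped, and the median difference was -0.37. Rgs16, counted here too, was the largest of the 7. Among all 5200 genes, 2.81% were lower and 2.1% higher without overlap.

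The metallothioneins, which bind zinc and copper, split the 6 other livers. Mt2 was 120.5, 110.2 and 117.1 in Con4, Con5 and Con6 and 124.8 to 3971 (median 918) in the others. Con8 (124.8) was almost level with the 3, so the difference of -2.86 comes without overlap by a narrow margin. Mt1 was 46.9, 15.7 and 42.2 against 28.8 to 4819 (median 1042). Con8 was again the low one at 28.8, below Con4 and Con6, and the mean difference of -4.76 came with overlap.

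Pck1, the rate-limiting enzyme of gluconeogenesis, was 336, 312.9 and 195.0 in Con4, Con5 and Con6 and 682.4 to 1301 (median 973) in the others. The sets were far apart, with a difference of -1.83. The interleukin 6 receptor gene Il6ra (-0.96), the plasma carrier of glucocorticoids Serpina6 (-0.81), the tryptophan dioxygenase Tdo2 (-0.38) and the EGF receptor inhibitor Errfi1 (-0.35) were also lower without overlap. Serpina6, though on this list, had a lower median in Dex (1851) than in Veh (3220), while Il6ra, Tdo2 and Errfi1 had a higher one. Cdkn1a also had a lower median in Dex (33.9) than in Veh (63.4), though Dex1, Dex2 and Dex3 (648.2, 513.6 and 846.6) lay far above. The labels do not spell out Dex, so the place of Serpina6 and Cdkn1a among induced genes is uncertain and was not tested. A second probe set overlapped for Serpina6 (-0.54) and for Tdo2 (0.04), and for Errfi1 it was lower without overlap (-0.47). Cdkn1a, the cell cycle inhibitor p21, was the 1 list member that was higher, at 136.6, 99.4 and 54.5 against 6.8 to 42.9 (difference 2.0), but its second probe set differed by -0.18 with overlap.

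Fkbp5 and Tat, classical glucocorticoid targets, overlapped. Fkbp5, a receptor co-chaperone, was 43.2, 51.1 and 83.3 against 55.2 to 280.2, where Con8 (55.2) lay inside the range of Con4, Con5 and Con6. Tat, the first enzyme of tyrosine breakdown, was 3381, 2971 and 1860.0 against 1763 to 3900 (difference -0.03), so it was not low in these mice. Of 5 measured genes of the receptor and its chaperones, Hsp90aa1 and Fkbp4 were higher without overlap, beside 2.1% of all 5200 genes. Hsp90aa1, the inducible Hsp90, was 539.5, 845.2 and 646.7 against 199.8 to 341.6, a difference of 1.36. Fkbp4, another co-chaperone, differed by 0.72, with 833.5, 803.7 and 737.2 against 426.2 to 534.7. That probe set is also marked as shared by a family, and a second one differed by 0.73 with overlap, since Con9 (300.7) lay above all 3.

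**Figure D3:**
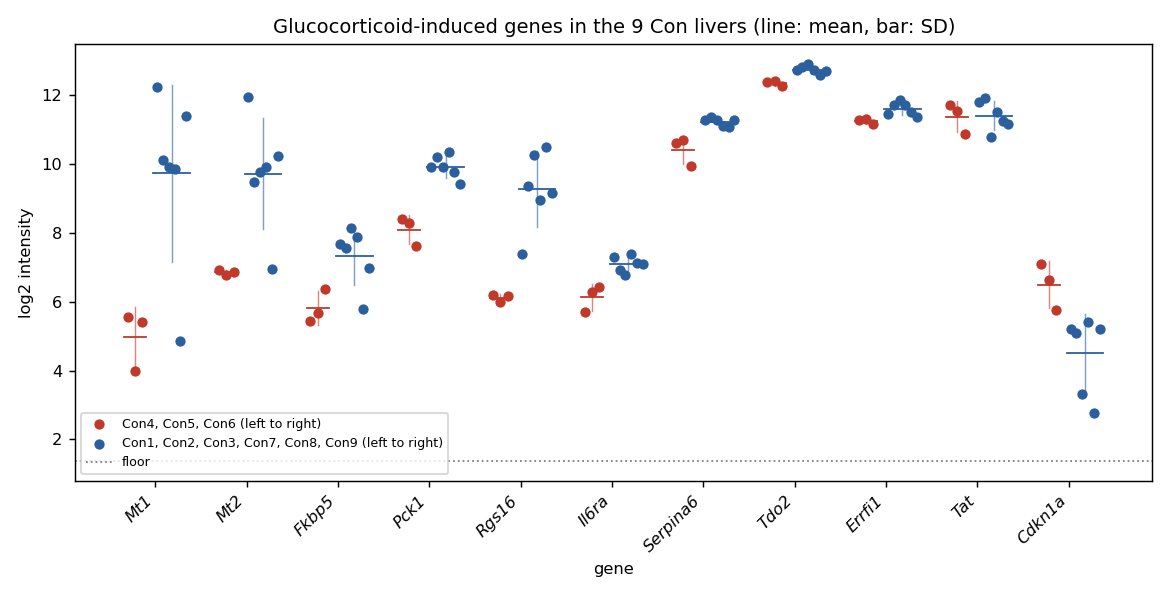
Log2 intensity (vertical axis) of 11 glucocorticoid-induced genes in the 9 Con livers, 1 point per mouse, with Con4, Con5 and Con6 in red and the other 6 in blue; lines are means, bars SD, and the dotted line is the floor. Pck1 and Rgs16 separate widely, Tat does not, and the lowest blue point of Mt1, Mt2 and Fkbp5 is Con8 in each case.

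Outside these lists, Tubb2a had the largest difference of the genes that were higher. Tubb2a, a subunit of microtubules, was 1169.7, 1249 and 1114 in Con4, Con5 and Con6 and 63.2 to 205.5 (median 99.3) in the others, a difference of 3.50. The 3 mice were within a narrow range and far above the rest. The beta-tubulins Tubb3 (2.14, with 337.4, 530.8 and 384.2 against 67.0 to 126.2) and Tubb5 (1.53, with 572.8, 609 and 582.5 against 145.6 to 257.6) were higher as well. The names of all 3 of these probe sets mark them as shared by a family, so the tubulin genes cannot be told apart by them, and another probe set of Tubb2a (0.53) and of Tubb5 (0.98) overlapped.

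Chka, a choline kinase of phosphatidylcholine synthesis, was 211.1, 123.1 and 159.5 in Con4, Con5 and Con6 and 11 to 41.3 (median 34.5) in the others, a difference of 2.56. The oestrogen receptor gene Esr1 was 57.3, 34.2 and 41.3 against 5.8 to 30.8 (difference 1.81), and Con5 was close to Con1 (30.8). Denn2b (2.55) and the Integrator subunit Ints9 (2.17) complete the 10 genes that were higher by most, and in both the other Con livers included values near the floor. Among the next 15, named after their values were seen, were the aromatic amino acid decarboxylase Ddc (1.44), the lysosomal lipase Lipa (1.32), the threonyl-tRNA synthetase Tars (1.29), the glycine decarboxylase Gldc (1.27), the cyclin G2 gene Ccng2 (1.19), the tight junction gene Cldn1 (1.17) and the inhibitor of differentiation Id3 (1.13). The remaining members of these 15 ranged from 1.11 to 1.65.

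Among the 15 genes after the 10 lowest, also named after their values were seen, were enzymes of several pathways. Gne, which starts sialic acid synthesis, was 258.6, 278.9 and 251.8 in Con4, Con5 and Con6 and 511.2 to 787.3 (median 696) in the others, a difference of -1.32. The 3 values were tight and well below the rest. The haem oxygenase Hmox2 was 4.1, 17.6 and 19.7 against 26.6 to 49.3; its difference of -1.70 rested much on Con4 and was -0.98 without it. Lower too were the phosphatidate phosphatase Lpin2 (-1.64), the adenosine deaminase Ada (-1.39), the GTP cyclohydrolase Gch1 (-1.36), the mitophagy receptor Bnip3 (-1.26) and the ganglioside synthase St3gal5 (-1.25).

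Metabolic and stress lists mostly overlapped, as did most of all 5200 genes (2.1% higher and 2.81% lower without overlap). None of the members was without overlap among 11 growth hormone and male-biased genes, 13 of lipogenesis, 16 of cholesterol synthesis, 15 targets of PXR and CAR and 11 targets of NRF2. Their median differences were 0.15, 0.43, 0.11, -0.20 and 0.33. Of 21 measured PPARA targets, Pdk4 and the lipid droplet gene Plin2 (0.98) were higher and Cpt1a (-0.86), which brings fatty acids into mitochondria, was lower, with a list median of 0.03. Cpt1a was 792.8, 840.4 and 894.2 against 1008 to 2008. Beside Pck1 and Tdo2, the other 11 measured genes of gluconeogenesis and amino acid breakdown all overlapped (list median 0.14), as did the 10 bile acid genes beside Cyp7a1 (list median 0.02).

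Of 19 endoplasmic reticulum chaperone genes, Herpud1 was lower (-1.05) and Hsp90b1 higher (0.35) without overlap. Hsp90aa1 was the 1 of 12 heat shock genes, and Cdkn1a the 1 of 13 cell cycle genes, that did not overlap. Of 23 acute phase genes, Mt2 and the pentraxin Apcs (-0.91) were lower, 20 had a lower mean, and the list median was -0.32. All 11 immediate early genes, 14 interferon-stimulated genes and 15 cytosolic ribosomal protein genes overlapped, with medians of 0.15, 0.03 and -0.03. These counts stand beside 2.1% higher and 2.81% lower without overlap among all 5200 genes.

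Markers of the hepatocyte and of other cells gave little separation, as did all 5200 genes (2.1% higher and 2.81% lower without overlap). Each of the 10 measured hepatocyte markers overlapped (median 0.12), with Alb at 13365, 26962 and 16814 in Con4, Con5 and Con6 and at 12637 to 24115 in the others. All measured members also overlapped for macrophages and Kupffer cells (17, median -0.15), T and NK cells (2), neutrophils (4), MHC class II (7), skeletal muscle (8), adipocytes (5), exocrine pancreas (5) and red cells (6). The markers outside the range were Cd79a of B cells (-0.77, 1 of 7), Ptprb of endothelium (0.47, 1 of 10), Fbln1 (-0.60) and Col6a1 (-0.48) of stellate cells and fibroblasts (2 of 13) and Cftr of bile ducts (-1.52, 1 of 7). Their lists did not follow them as a whole, with medians of 0.06, 0.07, 0.10 and -0.009 in the same order. Means were higher for 4 of 7, 9 of 10, 9 of 13 and 3 of 7 members. A second Fbln1 probe set past the filter differed by 0.18, the other way, with overlap. The mean level of the bile duct list was 6.18 to 7.06 on the log2 scale in Con4, Con5 and Con6 and 6.31 to 7.07 in the others. For the stellate cell and fibroblast list these ranges were 6.33 to 6.49 and 5.88 to 6.83, for B cells 5.4 to 5.83 and 5.33 to 5.94, and for endothelium 5.87 to 6.07 and 5.52 to 5.90. Their part in the differences was not tested. In whole liver, fewer cells of a type and less RNA per cell cannot be told apart.

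**Figure D4:**
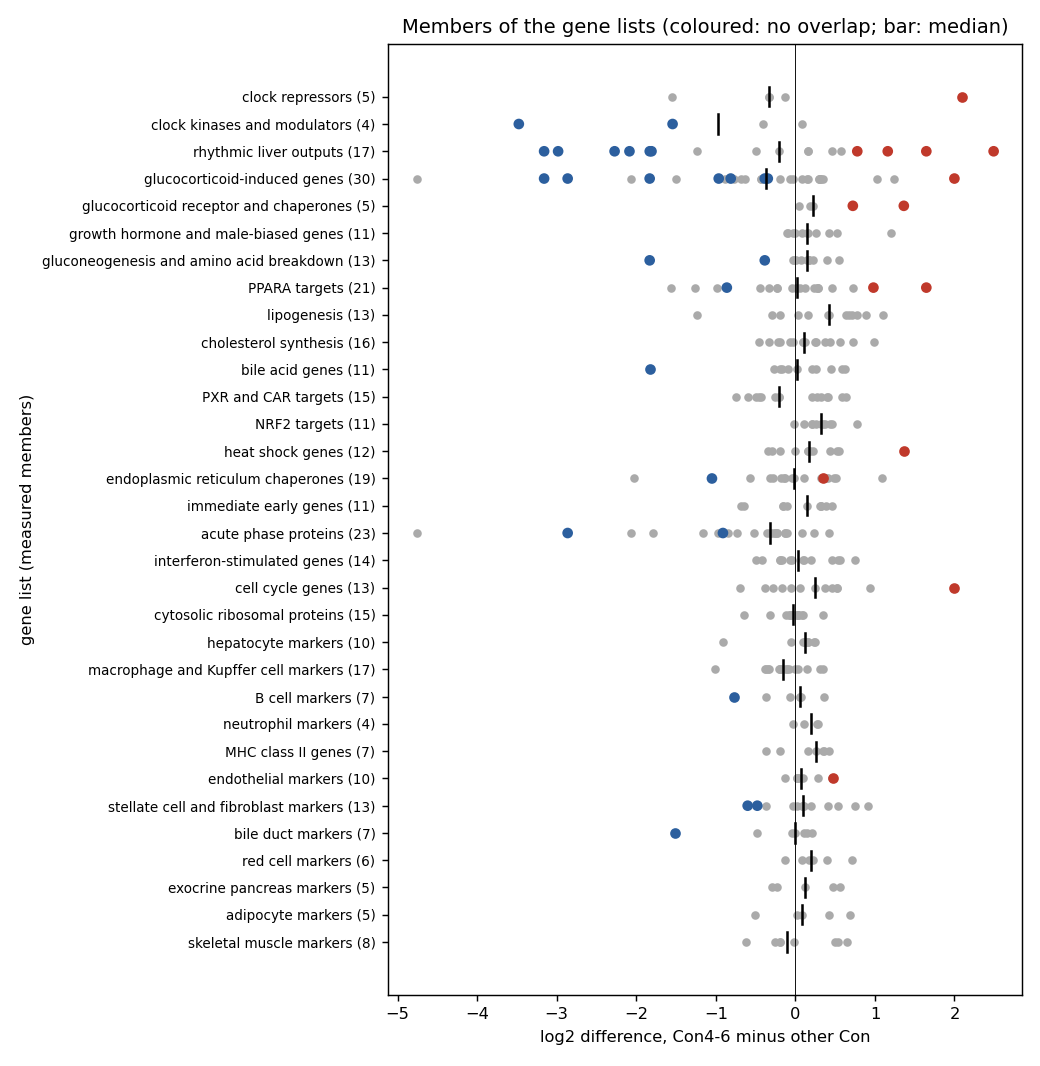
Log2 difference, Con4, Con5 and Con6 minus the other 6 Con livers (horizontal axis), of the measured members of each gene list with 4 or more of them (number in brackets), 1 point per gene; coloured points did not overlap, red higher and blue lower, and black bars are list medians. Coloured points make up 10 of 17 in the rhythmic outputs, 8 of 30 in the glucocorticoid-induced genes and 1 of 5 in the clock repressors. Among all 5200 genes, 2.1% were higher and 2.81% lower without overlap. Scores of clock and glucocorticoid-induced genes helped to choose the mice. The smaller clock lists are not plotted.

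To ask whether replicate numbers 4, 5 and 6 also stood apart where they had not been chosen, the 18 Veh and Dex arrays were tested. In the limma fit with group and number set as terms, 0 of 6784 probe sets passed (0.0%) an adjusted p of 0.05 between numbers 4 to 6 and the other numbers, with 271 at an unadjusted p under 0.05. The lowest adjusted p in limma was 0.52. The difference between Dex and Veh in this effect of number also gave 0 calls (0.0%), with 287 at an unadjusted p under 0.05. With quantile normalization 1 probe set passed for this difference, at a limma adjusted p of 0.0485. For Dbp the difference over both groups was 0.70, not beyond the spread (two-sided exact permutation p = 0.55, adjusted p = 0.825 over 6 tests). By group the Dbp difference was -0.30 in Veh (exact permutation p = 0.869) and 1.70 in Dex (exact permutation p = 0.357), with 3 against 6 mice each. The positive sign rested on Dex1, Dex2 and Dex3, whose Dbp lay at or near the floor. Without them, an alternative chosen after the data were seen, the difference was -0.62 in Dex (exact permutation p = 0.7, where 3 against 3 mice cannot go below 0.1) and -0.46 over both groups (exact permutation p = 0.636). Per1 differed by -0.40 over both groups (exact permutation p = 0.525, adjusted p = 0.825), by -0.15 in Veh and by -0.65 in Dex (exact permutation p = 0.774 and 0.548); over both groups it was -0.10 without Dex1, Dex2 and Dex3.

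Over both groups, the genes that differed at least 2-fold without overlap in Con lay on both sides in those arrays. Of the 38 genes that were lower in Con4, Con5 and Con6, 22 were lower and 16 higher in numbers 4 to 6 of Veh and Dex. Among all 5200 genes 2701 were lower and 2499 higher there. Of the 31 that were higher in Con4, Con5 and Con6, 15 were higher (48.4%) and 16 lower, beside 48.1% higher of all 5200 genes. Within Veh, 20 of the 38 were lower and 12 of the 31 higher (38.7%), beside 2559 lower and 50.8% higher of all 5200 genes. Within Dex, 24 of the 38 were lower and 16 of the 31 higher (51.6%), beside 2759 lower and 46.9% higher of all 5200 genes. Over all 5200 genes, numbers 4 to 6 were higher without overlap for 56 (1.08%) in Veh and 82 (1.58%) in Dex, and lower for 31 (0.596%) and 71 (1.37%). Of the genes that differed at least 2-fold in Con, 0 were among these in Veh and 3 in Dex: Upp2 and Tubb5 on the side they had in Con, and Fkbp11, named after its values were seen, on the other side. In Dex4, Dex5 and Dex6 Upp2 was 629.2, 145.2 and 672.7 against 989.2 or more in the other Dex mice, a difference of -2.66 (limma adjusted p = 0.341, Dex arrays alone). Tubb5 was 563.9, 751.3 and 456.8 against 322.7 or less, a difference of 1.18 (limma adjusted p = 0.341). The 5 named genes with the lowest unadjusted p in limma were Upp2 (-1.41 ± 0.49, SE), Fkbp4 (0.54 ± 0.19), Ccng2 (-1.01 ± 0.38), Noct (0.68 ± 0.27) and Pck1 (-1.02 ± 0.44), each with a limma adjusted p of 0.998. Upp2, Fkbp4 and Pck1 had the sign they had in Con, and Ccng2 and Noct the opposite one.

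Levels like those of Con4, Con5 and Con6 were found for some genes in other mice. Dbp was at 1.9 in Veh6, at 2.3 in Dex1, at 1.3 in Dex2 and at 2.9 in Dex3, no higher than in Con6. In these 4 mice Nr1d2 was at 36.4, 26.3, 23.3 and 50.5, however, above the 6.5 of Con6 and below the lowest other Con liver. No Veh or Dex mouse was as low as Con6 for Nr1d2, none of the 18 reached the lowest of the 3 for Arntl or Elovl3, and 1 (Dex2, 244.4) did for Cry1. For Arntl the margin was very narrow, since Veh9 (80.3) was almost level with Con5 (80.6). For Dbp the other Veh mice lay between 11.3 and 297.5 and 1 Veh mouse of 9 was inside the range of the 6 other Con livers. For Tubb2a the Veh median was 744.5 and the Dex median 318, both above the highest of the 6 other Con livers (205.5). For Tef the medians were 293 and 346, below all 6 and above all 3.

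**Figure D5:**
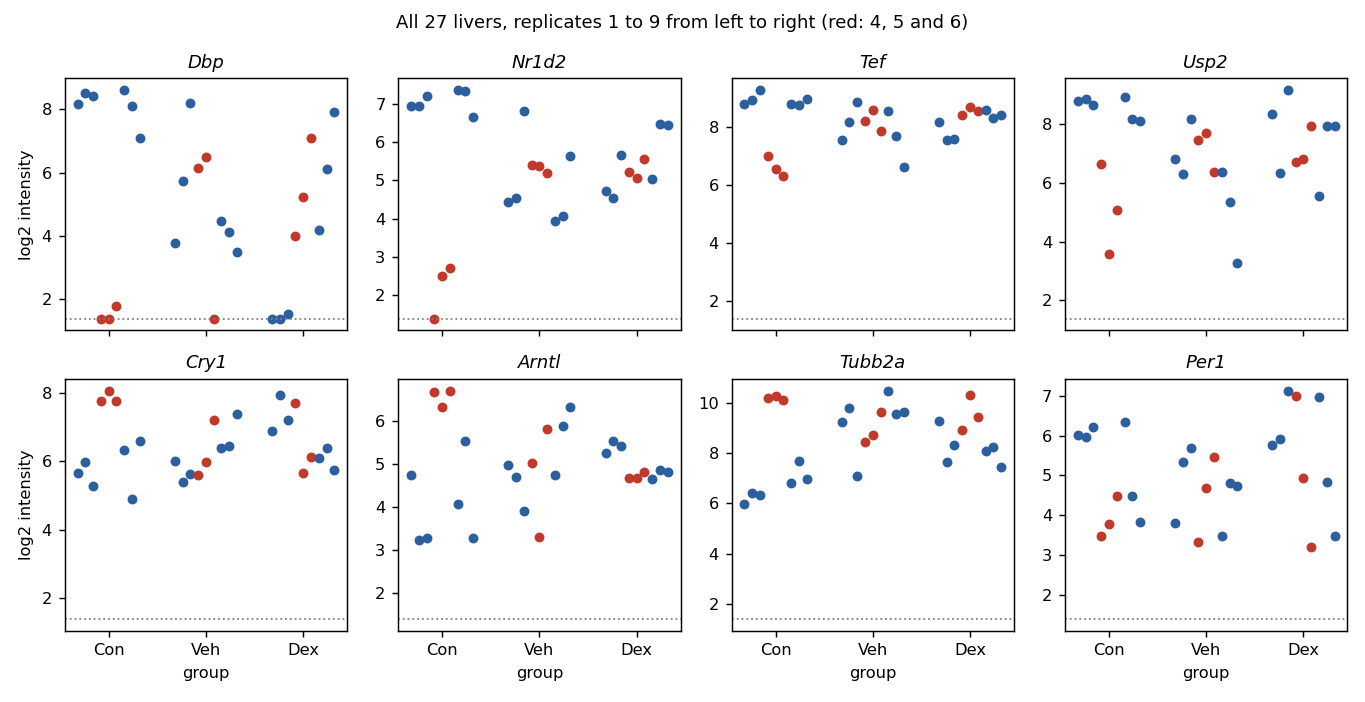
Log2 intensity (vertical axis) of 8 genes in all 27 livers, replicates 1 to 9 from left to right in Con, Veh and Dex, with numbers 4, 5 and 6 in red; the dotted line is the floor. The red points stand apart from the blue ones in Con for 7 of the genes, and for Per1 with overlap; in Veh and Dex red and blue points mix for all 8.

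Whether the genes that differed beside Dbp in Con also varied with it was tested within Veh, over its 9 mice, and within Dex4 to Dex9, since Dex1, Dex2 and Dex3 lay apart at the floor. Within Veh, Cry1 and Arntl were low where Dbp was high (Pearson r = -0.80 and -0.77, exact permutation p = 0.00889 and 0.0163; Spearman rho = -0.78 for both, exact permutation p = 0.0172). Without Veh3 and Veh6, the mice farthest from the median of Dbp, r was -0.74 and -0.76. Tef was high where Dbp was high (r = 0.66, rho = 0.85, exact permutation p = 0.0529 and 0.00607; r = 0.75 without the same mice). Over the 14 relations computed, none passed Benjamini-Hochberg adjustment, the lowest adjusted exact permutation p being 0.114 for r and 0.0804 for rho. In Dex4 to Dex9 the sign of r for Arntl was the opposite one, 0.81 (rho = 0.60, exact permutation p = 0.0889 and 0.242). Arntl varied little there, with no mouse above 29.1. The sign for Tef was also the opposite one, -0.27 (rho = -0.37, exact permutation p = 0.593 and 0.497). For Cry1 in Dex4 to Dex9 r was -0.54 (rho = -0.37, exact permutation p = 0.282 and 0.497) and 0.32 without Dex4 and Dex9. For Usp2 r was 0.60 in Veh and 0.85 in Dex4 to Dex9 (rho = 0.67 and 0.89, exact permutation p for r = 0.0889 and 0.0361). For Nr1d2 r was 0.48 and 0.75 (rho = 0.33 and 0.66). For Nr1d1 r was 0.33 and 0.21, and it was -0.37 and -0.58 without the mice farthest in Dbp. Nfil3 had r of -0.49 in Veh and 0.21, the opposite sign, in Dex4 to Dex9. The exact permutation p for r was 0.121 or more for Nr1d2, Nr1d1 and Nfil3. Dex1, Dex2 and Dex3 were left out for their low Dbp, which is itself part of each relation. Their Arntl (38.3, 46.5 and 42.8) lay above, and their Tef (289.9, 191.1 and 193.1) below, all of Dex4 to Dex9. That is the direction seen in Veh. For Usp2, Dex1 (324.6) and Dex3 (575.2) lay above all of Dex4 to Dex9, against that direction. The relations over all 9 Dex mice were not tested.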

How the data were processed

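Liver RNA of 27 mice was measured on 27 Affymetrix arrays, 1 liver each, per the labels' protocols. The authors deposited a linear intensity for each probe set and array, already on a common scale. Their software and scaling target are not stated in the labels used here. From these deposited intensities, values were raised to a floor of 2.6, the 10th percentile of those above 0, and turned into log2, with no further scaling. Control probe sets (66) were left out, and 6784 of 12422 probe sets, above their array's median in at least 9 of 27 arrays, were described. The probe annotation gave a single symbol to all but 688 of the 6784, and these symbols named 5200 genes. Where a gene had several probe sets, the brightest stood for it.

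Named genes were the members of 4 clock lists, the 10 genes highest and 10 lowest without overlap whose higher set lay above the array median in each of its arrays, up to 3 members of each other list, and Tat, Pck1, Fkbp5, Mt1 and Alb. The next 15 genes each way, the rest of the rhythmic and glucocorticoid genes without overlap, the relations with Dbp, the counts of signs and of genes without overlap in Veh and Dex and 2 symbol aliases (Bmal1 as Arntl, Pc as Pcx) were added after values were seen. The mice, the 36 gene lists (618 genes, 361 measured) and the tests were chosen with earlier results of these data known.

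Veh and Dex arrays were fitted with limma 3.58.1 in R 4.3.3 (group and number set, trended eBayes, two-sided tests, 6784 p-values adjusted by Benjamini-Hochberg, threshold 0.05), and checked on simulated data; single genes were tested by exact permutation of numbers within each group (84 ways a group, 7056 in both). Alternatives were quantile normalization, other floors and filters, other limma settings, and leaving out mice. Sequences and coordinates came from RefSeq tables of GRCm38.p6. An array has no read depth: the number of arrays limits the precision, and p-values set a difference of means against the spread between these mice.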

Additional observations from a re-analysis of the deposited data

Results flagged for a closer look

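Among the 6 other Con livers, 2 genes had 1 mouse far from the rest. For Dbp, Con9 had an intensity of 137.6, and its gap to the next mouse took up 0.653 of the range on the log2 scale. For Mt1, Con8 had an intensity of 28.8 with a gap of 0.679 of the range. Of 82 groups of samples looked at in this way 2 stood out, fewer than the about 1 in 20 that chance gives. Con8 was also the lowest of the 6 for Mt2 and Fkbp5.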

How the results depend on the processing

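Counts without overlap depended on how many mice had to separate. Leaving out 1 Con mouse gave 381 to 723 probe sets without overlap (321 with all 9), and 91 to 163 of at least 2-fold (87 with all 9), with 163 without Con4, 141 without Con5 and 146 without Con6. With no filter on dim probe sets 152 were of at least 2-fold, since more probe sets were counted. For the number effect in Veh and Dex, limma gave 0 calls under each of the other settings run, with 0 to 0 calls when 1 mouse was left out. For its difference between Dex and Veh, quantile normalization gave 1 call and the other settings run 0. Whether the numbers paired the mice was not tested, and the labels do not say. The deviations of same-numbered mice correlated over 0.1 in 0 of 9 pairs of Con and Veh, 1 of 9 of Con and Dex and 3 of 9 of Veh and Dex. In Veh and Dex 3 of 9 mice correlated best with their own number. For Con and Veh it was 1 of 9, as it was for Con and Dex. With the number as a replicate block, limma estimated a correlation of 0.12 between same-numbered mice. That fit gave 0 calls and 199 at an unadjusted p under 0.05, and changed no call. Leaving out 1 mouse gave differences of -0.883 to 0.063 for Per1 in Veh and Dex, above 0 only without Dex6, and of 0.242 to 1.519 for Dbp. Leaving out Dex1, Dex2 and Dex3 together, an alternative chosen after the data were seen, turned the Dbp difference to -0.464 and gave -0.102 for Per1, and the exact permutation p stayed above 0.05 for both (0.636 and 0.861). Of 912 values of 76 named genes under the alternatives, 1 moved by more than the spread of the mice (Dbp, to -5.70 with the floor at the 20th percentile) and 0 of those without overlap changed sign. Values near the floor, as for Dbp and Nr1d2 in Con4, Con5 and Con6, give no exact fold.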
